A study of Mus musculus with 10 samples.

Results

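The genes described here are 48 genes of mitosis and the G2/M transition, the machinery with which a cell enters division, separates its chromosomes and splits into daughter cells. They were chosen by gene symbol from a fixed list, out of the 48397 gene symbols counted in each library. The list was set with earlier results of these data known. All 48 were found and all 48 passed the filter on low counts.

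Bulk RNA sequencing covered 5 TAC and 5 Sham libraries of left atrial tissue from wild-type mice, taken 2 weeks after surgery. TAC, transverse aortic constriction, narrows the aortic arch so that the left heart works against a raised pressure, and Sham mice had an operation without the narrowing. The mice were 2 months old at surgery and, per the series' design text, male C57BL/6J animals. That text gives the left appendage as the tissue and a TruSeq kit, but the labels of the samples give the atrium and a low-input kit that amplifies RNA, so the exact material is not settled by the sources. Separate animals are not stated for the libraries, and p-values therefore measure the spread between libraries, which may be partly technical.

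In a resting adult tissue these genes are nearly silent, because a cell transcribes most of them only while it passes through G2 and mitosis. Cyclins A and B bind the kinase CDK1 and start mitosis. The kinetochore then ties chromosomes to the spindle, the spindle checkpoint delays separation until every chromosome is attached, and the anaphase-promoting complex (APC/C) ends the delay by marking cyclin B and securin for destruction. In resting cells the DREAM complex, built on a MuvB core, keeps the genes off through an element called CHR near their start sites. In cycling cells B-MYB and FOXM1 join MuvB and the same genes are switched on, together with the factor NF-Y at CCAAT boxes. Adult heart muscle cells rarely divide, while fibroblasts, endothelial cells and macrophages of the heart can.

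Depth over genes was 29493200 to 41358617 counts in TAC libraries and 17117306 to 43956384 in Sham libraries, the 2 shallowest being Sham 1 and Sham 2. Mitochondrially encoded genes took 9.31% to 14.2% of counts in TAC and 14.6% to 17.4% in Sham. Of the cell type marker lists examined, the atrial heart muscle list had the largest sum in every library, at 44357 to 57750 CPM (counts scaled to a common library size) in TAC and 84465 to 99838 CPM in Sham. Some of its genes, Myh6 and Actc1 among them, are not particular to the atrium, so its sum does not separate atrial from ventricular muscle. The ventricular list summed to 87.2 to 492 CPM in TAC and 239 to 818 CPM in Sham. Of its members Hey2 was called higher, Lrrc10 and Myl2 were called lower, Myl3 was not called and Irx4 did not pass the filter on low counts. Of the 15175 genes tested with edgeR's quasi-likelihood test, 8616 (56.8%) were called at an adjusted p under 0.05, so a call alone is common in this comparison.

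Every one of the 48 genes was higher in TAC. All 48 were called higher and 0 lower, where 28.9% of all tested genes were called higher and 27.9% lower. The median log2 fold change was 4.94 over the 48 genes and 0.0051 over all tested genes. At a log2 fold change of at least 1, 47 of the 48 were called, against 11.7% of all tested genes called higher by that much. At a log2 fold change of at least 3, 46 of the 48 were called, against 2.1% of all tested genes, and these 46 made up 14.4% of the 319 genes that passed that mark. Among the 100 tested genes with the largest log2 fold changes, 28 were from this group. For 47 of the 48 the lowest TAC library was above the highest Sham library, which was so for 21.5% of all tested genes. The exception was Cenpa. Some members passed the filter on low counts only through their TAC libraries. Depdc1a, for example, had 6 counts over the Sham libraries together and at least 52 in each TAC library. Such a gene could not have been called lower, so the absence of lower calls is partly set by the filter. Because the list was set with earlier results of these data known, these shares describe the genes and are no test of the list.

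The summed level of the 48 genes was 1413, 1035, 1587, 496.1 and 1875 CPM in TAC libraries 1 to 5, against 123, 61.0, 81.9, 78.7 and 56.1 CPM in Sham libraries 1 to 5. The groups did not overlap, and the lowest TAC sum was TAC 4. These sums averaged 1281 ± 534 CPM in TAC and 80.2 ± 26.4 CPM in Sham (SD, n = 5 each). Cenpa alone made up 4.76% of the mean sum in TAC and 44.5% in Sham. The other 47 genes summed to 1220 ± 516 CPM in TAC and 44.5 ± 24.8 CPM in Sham, a ratio of 27.5. Sham levels were low, and 31 of the 48 genes had a mean Sham level under 1 CPM, and 37 had a mean TAC level of at least 10 CPM. In a bulk sample, more dividing cells and more of these RNAs per cell cannot be told apart.

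**Figure D1:**
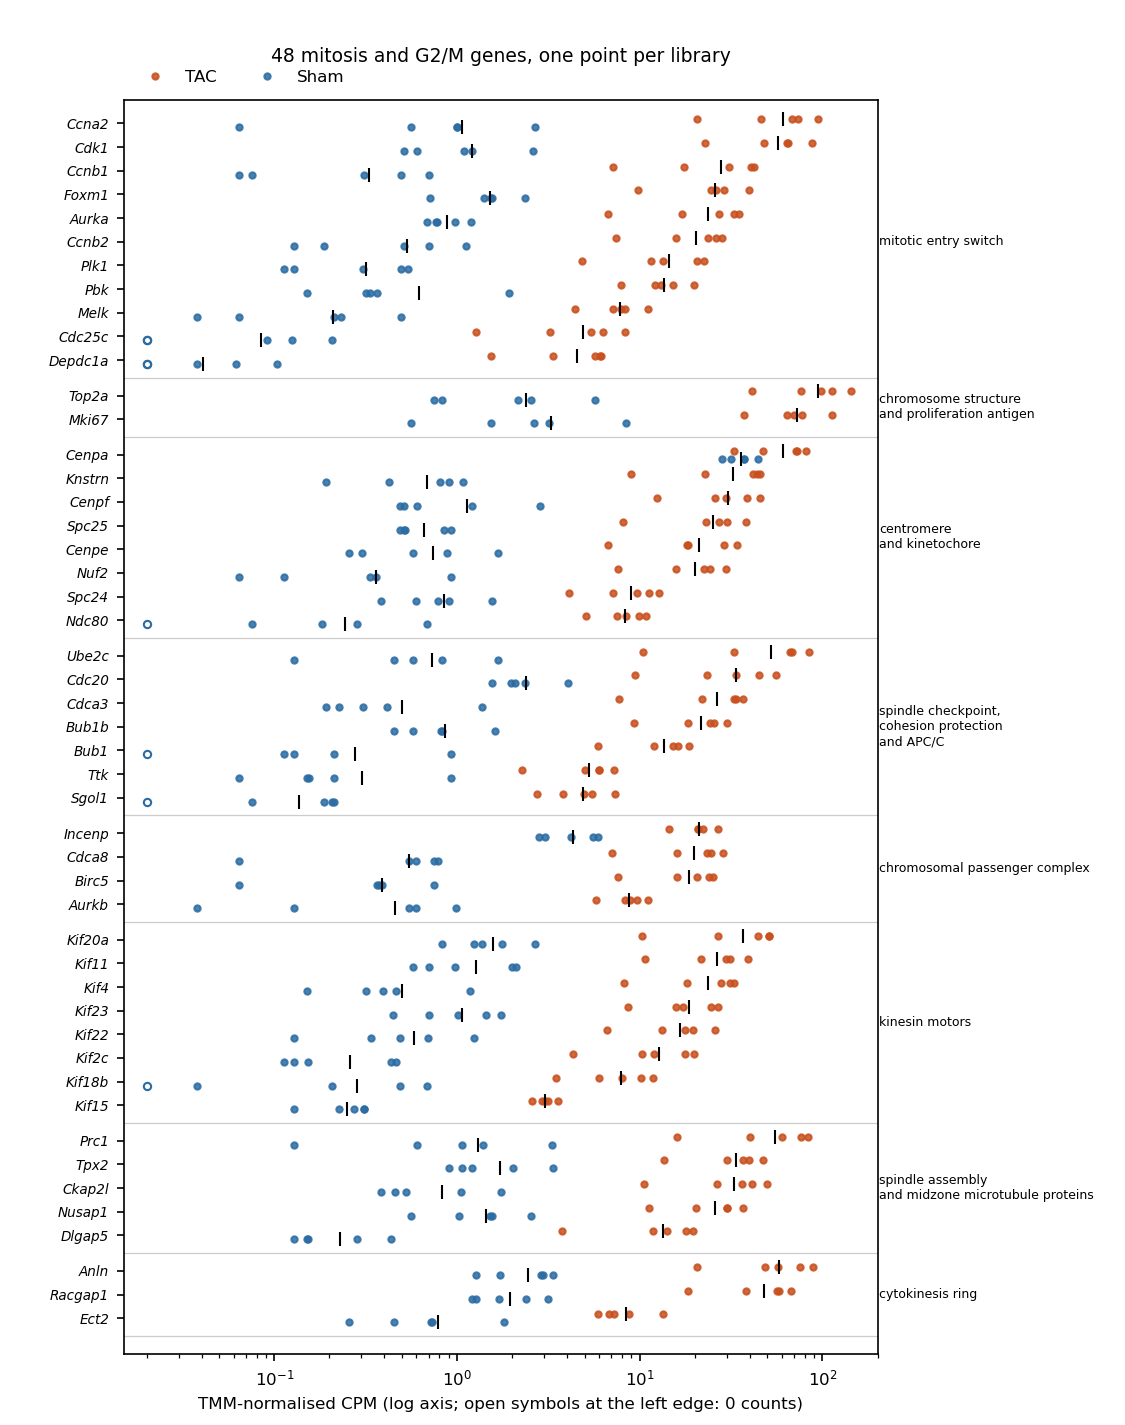
TMM-normalised CPM (log axis) of the 48 genes in each library, TAC in orange and Sham in blue, grouped by role, with a black tick at each group's mean and open symbols at the left edge for libraries with 0 counts. The points of the groups are apart in 47 rows and mix only in the row of Cenpa, whose Sham points lie between 28.03 and 44.1 CPM.

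The promoters of 6 members are shown because the CHR element, known to keep such genes off in resting cells, and the CCAAT box, known to help switch them on in cycling cells, can be read in them. They are the promoters of Top2a, Cenpa, Mki67, Prc1, Ube2c and Racgap1, with CCAAT and the CHR core letters (TTTGAA or TTTAAA), each on either strand, in capitals. The sequences are RefSeq's, on build GRCm38.p6, from 250 bases before to 50 bases after the annotated start, read 5′ to 3′ on the gene's strand. They lie at chr11:99024140-99024439 (minus strand, Top2a), chr5:30666636-30666935 (plus strand, Cenpa), chr7:135716330-135716629 (minus strand, Mki67), chr7:80294201-80294500 (plus strand, the first of 2 start sites of Prc1), chr2:164769679-164769978 (plus strand, Ube2c) and chr15:99651607-99651906 (minus strand, Racgap1).
Top2a: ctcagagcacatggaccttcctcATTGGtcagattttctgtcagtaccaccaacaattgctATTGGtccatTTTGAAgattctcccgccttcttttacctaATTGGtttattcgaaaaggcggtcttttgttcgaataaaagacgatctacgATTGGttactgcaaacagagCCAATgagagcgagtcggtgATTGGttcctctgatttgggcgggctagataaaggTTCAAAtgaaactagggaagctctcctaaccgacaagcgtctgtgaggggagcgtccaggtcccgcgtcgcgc
Cenpa: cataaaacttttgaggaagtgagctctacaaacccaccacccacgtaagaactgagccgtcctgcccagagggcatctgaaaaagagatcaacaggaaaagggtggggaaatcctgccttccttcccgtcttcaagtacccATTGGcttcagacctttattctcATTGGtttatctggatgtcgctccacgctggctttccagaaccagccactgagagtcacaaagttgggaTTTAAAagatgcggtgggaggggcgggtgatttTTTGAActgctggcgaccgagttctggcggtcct
Mki67: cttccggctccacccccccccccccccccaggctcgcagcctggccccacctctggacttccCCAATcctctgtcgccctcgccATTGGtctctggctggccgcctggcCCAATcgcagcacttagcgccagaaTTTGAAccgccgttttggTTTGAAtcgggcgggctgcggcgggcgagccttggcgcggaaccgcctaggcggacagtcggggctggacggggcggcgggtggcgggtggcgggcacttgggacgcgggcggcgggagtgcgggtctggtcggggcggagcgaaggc
Prc1: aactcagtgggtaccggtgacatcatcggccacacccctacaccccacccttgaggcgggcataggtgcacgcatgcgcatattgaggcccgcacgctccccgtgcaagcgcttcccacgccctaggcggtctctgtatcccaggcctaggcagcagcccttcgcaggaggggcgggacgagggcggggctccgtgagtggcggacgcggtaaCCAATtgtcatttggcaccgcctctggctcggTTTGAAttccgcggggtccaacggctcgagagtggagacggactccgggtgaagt
Ube2c: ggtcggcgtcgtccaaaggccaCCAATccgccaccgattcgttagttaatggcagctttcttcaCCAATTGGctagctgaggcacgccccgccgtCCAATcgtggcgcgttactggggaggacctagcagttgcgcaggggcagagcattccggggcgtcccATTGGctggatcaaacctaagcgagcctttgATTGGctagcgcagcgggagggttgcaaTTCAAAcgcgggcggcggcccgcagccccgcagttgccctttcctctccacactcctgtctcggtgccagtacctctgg
Racgap1: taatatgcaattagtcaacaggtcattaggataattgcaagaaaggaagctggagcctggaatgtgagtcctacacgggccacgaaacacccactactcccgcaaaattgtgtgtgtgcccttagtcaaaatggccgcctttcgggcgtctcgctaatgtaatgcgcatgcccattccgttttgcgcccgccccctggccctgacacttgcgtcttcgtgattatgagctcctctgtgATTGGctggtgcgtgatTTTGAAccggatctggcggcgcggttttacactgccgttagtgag

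In the promoters of Prc1 and Racgap1 a single CCAAT letter run lies shortly before a single CHR core. Top2a and Ube2c each hold 6 CCAAT runs, counting a reverse-complement overlap in Ube2c as 2. In Mki67 the CHR cores start 116 and 98 bases before the annotated start, farther upstream than in the other promoters printed except for the outer core of Top2a. The promoter of Cenpa, the gene with the smallest change, holds CHR cores that begin 17 bases before and 16 bases after the start.

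RefSeq promoters of this window were matched for 38 of the 48 genes (40 promoters) out of 27025 genes (32851 promoters). Ccna2, Cdc25c, Foxm1, Pbk, Aurkb, Incenp, Spc24, Kif20a, Dlgap5 and Tpx2 were not matched. The letters CCAAT were present for 29 of 38 members (76.3%) and for 41.1% of all genes with a promoter. The CHR core was present for 32 members (84.2%) and for 30.6% of all genes. Both occurred together for 27 members (71.1%) and for 12.2% of all genes. E2F letters, meaning TTGGCGC as well as the forms TTCCCGC and also TTCGCGC, were present for 5 members (13.2%), namely Ccnb1, Cdk1, Ect2, Kif15 and Mki67, and for 9.20% of all genes. Both strands were searched for each motif, and overlapping matches were each counted.

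Near the start the difference from other promoters was larger than over the whole window. Between 100 and 51 bases before the start, member promoters held 65.0 CCAAT matches per 100 promoters and all promoters 13.8. In the first 50 bases from the start onward, member promoters held 57.5 CHR core matches per 100 promoters and all promoters 3.48. Farthest from the start, between 250 and 201 bases before it, member promoters had 10 CCAAT and 10 CHR core matches per 100, and all promoters 7.86 and 7.54. Within a window of 150 bases, from 100 bases before to 50 bases after the start, both letter runs occurred for 25 members (65.8%) and for 3.504% of all genes. Knstrn, Melk, Nuf2 and Nusap1 held neither run in the whole window, and their log2 fold changes were 5.49, 5.25, 5.85 and 4.18. A letter match describes the sequence and is not evidence of binding in these samples.

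**Figure D2:**
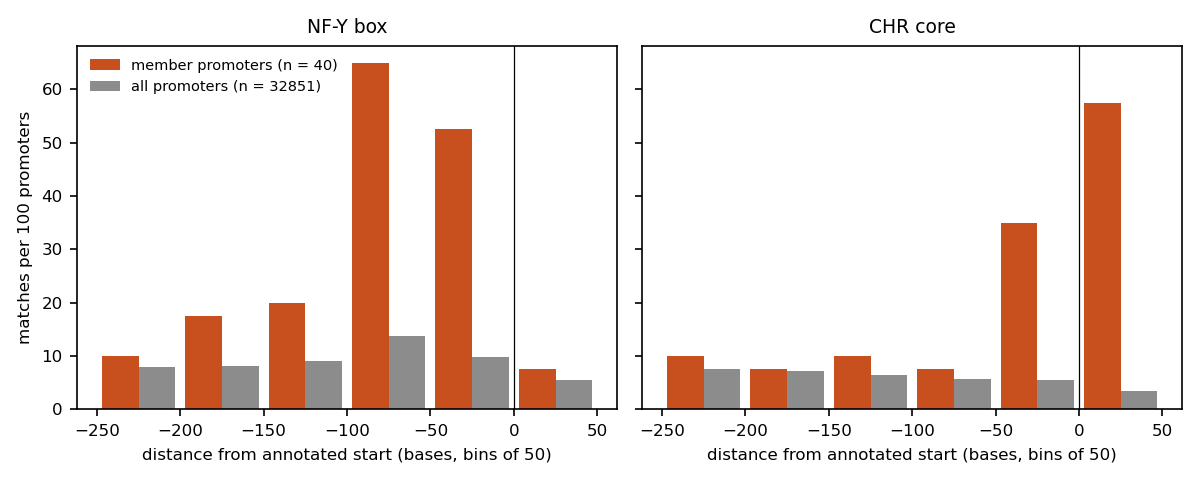
Matches per 100 promoters in bins of 50 bases, by distance from the annotated start, for the NF-Y box (left) and the CHR core (right), with 40 member promoters in orange beside all 32851 promoters in grey. The member bars for the NF-Y box are highest between 100 and 51 bases before the start (65.0 per 100), and those for the CHR core are highest in the first 50 bases after it (57.5 per 100).

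The mitotic entry switch held 11 genes, and all 11 rose, with log2 fold changes of 4.13 to 6.53 (median 5.44). Their summed level was 261 ± 114 CPM in TAC and 6.78 ± 3.89 CPM in Sham (SD, n = 5 each). Ccna2, at chromosome 3, 36564865 to 36572150, encodes cyclin A2, which partners CDK2 and CDK1 from S phase into mitosis. Ccna2 had 68.05, 46.1, 73.6, 20.6 and 94.4 CPM in the TAC libraries, against 2.67, 0.0639, 1.003, 1.005 and 0.563 CPM in the Sham libraries. The 5 TAC libraries were all above the 5 Sham libraries, with TAC 4 lowest and TAC 5 highest, and Sham 2 had a single count (log2 fold change 5.88, SE 0.58, adjusted p = 1.4e-05). Depdc1a, which in human cells takes part in mitotic progression, had the largest log2 fold change of the 48. It had 5.69, 3.34, 6.13, 1.53 and 6.095 CPM in the TAC libraries, against 0.0621, 0, 0, 0.103 and 0.0375 CPM in the Sham libraries. Its 5 Sham libraries held 6 counts together and 2 of them held 0, which at 3 counts allows up to 0.192 CPM in Sham 2 and 0.0912 CPM in Sham 3, so the size of the change is poorly fixed (log2 fold change 6.53, SE 0.62, adjusted p = 7.6e-06). Without Sham 4 its log2 fold change was 7.45, and with a prior count of 2 it was 5.43.

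The rest of the switch rose by 4.13 to 6.30 on the log2 scale. Cdk1, the kinase itself, rose by 5.62 on the log2 scale, and the cyclin B genes Ccnb1 and Ccnb2 by 6.30 and 5.26. Cdc25c, the phosphatase gene whose product removes the inhibiting phosphates from CDK1, rose by 5.61, a value that was 6.39 without Sham 4. Plk1 and Aurka, kinase genes of spindle poles and mitotic entry, rose by 5.44 and 4.72. Foxm1, the transcription factor gene of the G2/M program, rose by 4.13. Melk and Pbk, kinase genes transcribed in dividing cells, rose by 5.25 and 4.64, and the Pbk value was 5.52 without the 2 shallowest Sham libraries.

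Chromosome structure and proliferation antigen genes, Top2a and Mki67, both rose. Top2a, at chromosome 11, 98992943 to 99024189, encodes topoisomerase II alpha, which untangles sister chromatids. Top2a had 98.6, 76.4, 112, 41.3 and 144 CPM in the TAC libraries, against 5.71, 0.831, 2.16, 2.52 and 0.7505 CPM in the Sham libraries. The lowest TAC library stood at 41.3 CPM and the highest Sham library at 5.71 CPM (log2 fold change 5.34, SE 0.53, adjusted p = 1.5e-05). Mki67, at chromosome 7, 135689784 to 135716361, encodes the Ki-67 antigen used to stain cycling cells, a protein that coats mitotic chromosomes. Mki67 had 69.95, 64.1, 77.7, 37.2 and 112 CPM in the TAC libraries, against 8.38, 1.53, 2.64, 3.17 and 0.563 CPM in the Sham libraries. Every TAC library was above every Sham library, and Sham 1 was well above the other Sham libraries (log2 fold change 4.53, SE 0.56, adjusted p = 6.1e-05). Without Sham 1 the log2 fold change of Mki67 was 5.12.

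Centromere and kinetochore genes, 8 in number, all rose, but unequally, with log2 fold changes of 0.77 to 5.85 (median 5.01). Cenpa, at chromosome 5, 30666777 to 30674830, encodes the histone H3 variant that marks centromeres. Cenpa had 72.3, 47.2, 81.3, 32.6 and 71.6 CPM in the TAC libraries, against 37.4, 37.3, 44.1, 31.6 and 28.03 CPM in the Sham libraries. TAC 4 lay below 3 of the Sham libraries, so the groups overlapped, and this was the smallest change of the 48 (log2 fold change 0.77, SE 0.23, adjusted p = 0.013). Its adjusted p ranged from 0.00088 to 0.043 over the alternative settings. Nuf2, at chromosome 1, 169497934 to 169531464, encodes a subunit of the NDC80 complex, which grips spindle microtubules. Nuf2 had 24.3, 15.8, 22.5, 7.58 and 29.7 CPM in the TAC libraries, against 0.931, 0.0639, 0.334, 0.361 and 0.113 CPM in the Sham libraries. All TAC libraries were above all Sham libraries (log2 fold change 5.85, SE 0.53, adjusted p = 7.2e-06).

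The other subunit genes of the NDC80 complex, Ndc80, Spc25 and Spc24, rose by 5.14, 5.26 and 3.44 on the log2 scale. Cenpe, a kinesin gene whose product carries chromosomes to the spindle equator, rose by 4.88, and Cenpf, a gene for an outer kinetochore protein, by 4.83. Knstrn, whose product binds astrin at kinetochores and spindle, rose by 5.49. Together the 8 genes summed to 208 ± 81.1 CPM in TAC and 40.4 ± 6.80 CPM in Sham (SD, n = 5 each), and most of the Sham sum was Cenpa.

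Genes of the spindle checkpoint, cohesion protection and the APC/C, 7 in number, all rose, with log2 fold changes of 3.84 to 6.19 (median 4.99). Ube2c, at chromosome 2, 164769898 to 164778822, encodes the ubiquitin-conjugating enzyme that works with the APC/C. Ube2c had 66.3, 32.96, 67.8, 10.4 and 84.3 CPM in the TAC libraries, against 1.68, 0.128, 0.577, 0.825 and 0.4503 CPM in the Sham libraries. The groups were far apart, yet TAC 5 was 8.11 times TAC 4, the widest spread among TAC libraries of any of the 48 genes (log2 fold change 6.19, SE 0.66, adjusted p = 2.4e-05). Of its exonic bases 22.8% are shared with Tnnc2 on the opposite strand, which had 1 count in the 10 libraries together. Cdca3, at chromosome 6, 124829547 to 124833701, is also called trigger of mitotic entry, and in frog egg extracts its product promotes destruction of the CDK1 inhibitor WEE1. Cdca3 had 32.6, 21.9, 33.5, 7.69 and 36.6 CPM in the TAC libraries, against 1.37, 0.192, 0.304, 0.412 and 0.225 CPM in the Sham libraries. TAC was above Sham in every library, and Sham 1 stood above the other Sham libraries (log2 fold change 5.86, SE 0.57, adjusted p = 1.3e-05).

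Bub1 and Bub1b, checkpoint genes of the kinetochore, rose by 5.80 and 4.69 on the log2 scale, and Ttk, the kinase gene that starts the checkpoint signal, by 4.27. Without Sham 1 the values for Bub1 and Ttk were 6.67 and 5.05. Sgol1, the shugoshin gene that protects centromeric cohesion, rose by 4.99. Cdc20, which activates the APC/C, rose by 3.84. The 7 genes summed to 158 ± 75.4 CPM in TAC and 5.20 ± 3.14 CPM in Sham (SD, n = 5 each).

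The chromosomal passenger complex, which corrects faulty attachments and then moves to the midzone, is encoded by 4 of the genes, and all 4 rose. Birc5, at chromosome 11, 117849251 to 117855743, encodes survivin, its centromere-binding subunit. Birc5 had 24.03, 16.1, 20.5, 7.58 and 25.2 CPM in the TAC libraries, against 0.745, 0.0639, 0.365, 0.386 and 0.375 CPM in the Sham libraries. The groups did not overlap (log2 fold change 5.59, SE 0.43, adjusted p = 2.9e-06). Incenp, at chromosome 19, 9872296 to 9899551, encodes the scaffold that activates the kinase. Incenp had 20.9, 20.95, 22.2, 14.5 and 26.8 CPM in the TAC libraries, against 5.898, 2.81, 4.22, 5.52 and 3.04 CPM in the Sham libraries. The groups were apart, its TAC libraries spread less (coefficient of variation 20.9%, against a median of 41.9% over the 48 genes), and its change was the second smallest (log2 fold change 2.29, SE 0.23, adjusted p = 1.0e-05). Aurkb, the kinase gene, and Cdca8, the gene of borealin, rose by 4.25 and 5.12.

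Kinesin motor genes, 8 in number, all rose, with log2 fold changes of 3.55 to 5.66 (median 4.68) and summed levels of 146 ± 61.7 CPM in TAC and 5.79 ± 3.02 CPM in Sham (SD, n = 5 each). Kif20a, at chromosome 18, 34624613 to 34633277, encodes the motor that carries the passenger complex to the midzone. Kif20a had 44.1, 26.7, 51.1, 10.3 and 50.7 CPM in the TAC libraries, against 2.67, 0.831, 1.76, 1.37 and 1.24 CPM in the Sham libraries. The groups were separate (log2 fold change 4.55, SE 0.47, adjusted p = 1.9e-05). On the opposite strand Cdc23 covers 29.3% of these exonic bases, and Cdc23 stood at 37.8 ± 1.399 CPM in TAC and 37.8 ± 1.06 CPM in Sham (SD, n = 5 each). Kif4, at chromosome X, 100625737 to 100727214, encodes a chromosome-bound motor that also shapes the midzone. Kif4 had 27.96, 18.1, 31.00, 8.22 and 32.98 CPM in the TAC libraries, against 1.18, 0.3195, 0.395, 0.464 and 0.1501 CPM in the Sham libraries. The lowest TAC library, at 8.22 CPM, was above the highest Sham library, at 1.18 CPM (log2 fold change 5.66, SE 0.51, adjusted p = 7.2e-06).

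Among the other motor genes, Kif11, which pushes spindle poles apart, rose by 4.36, and Kif22, a chromosome-bound motor, by 4.85. Kif2c and Kif18b, whose products shorten microtubules, rose by 5.58 and 4.81. Kif23, the motor of the centralspindlin complex, rose by 4.11. Kif15, a spindle motor gene singled out after its values were seen, had 2.57, 3.16, 3.55, 2.91 and 3.03 CPM in the TAC libraries, against 0.3104, 0.128, 0.274, 0.309 and 0.225 CPM in the Sham libraries. Its TAC libraries were close together, and its adjusted p was the smallest of the 48 (log2 fold change 3.55, SE 0.23, adjusted p = 8.5e-07).

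Spindle assembly and midzone microtubule genes, 5 in number, all rose, with log2 fold changes of 4.18 to 5.89 (median 5.34). Dlgap5, at chromosome 14, 47387779 to 47418407, encodes HURP, which stabilises microtubules near chromosomes. Dlgap5 had 14.1, 11.9, 19.6, 3.76 and 17.9 CPM in the TAC libraries, against 0.435, 0.128, 0.152, 0.284 and 0.1501 CPM in the Sham libraries. The separation between groups was complete (log2 fold change 5.89, SE 0.51, adjusted p = 5.8e-06). Prc1, at chromosome 7, 80294450 to 80316259, encodes the protein that bundles the antiparallel microtubules of the midzone. Prc1 had 59.7, 39.99, 76.1, 15.97 and 83.3 CPM in the TAC libraries, against 3.29, 0.128, 1.06, 1.39 and 0.6004 CPM in the Sham libraries. TAC 4 was the lowest TAC library and remained above Sham 1, the highest Sham library (log2 fold change 5.45, SE 0.61, adjusted p = 3.4e-05). Tpx2, which nucleates spindle microtubules and activates Aurora A, rose by 4.33, and the spindle-associated genes Nusap1 and Ckap2l rose by 4.18 and 5.34.

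The cytokinesis ring was represented by 3 genes, which all rose. Anln, at chromosome 9, 22332012 to 22389188, encodes anillin, the scaffold of the contractile ring. Anln had 57.02, 48.3, 74.99, 20.6 and 88.9 CPM in the TAC libraries, against 3.35, 2.94, 1.28, 1.73 and 2.89 CPM in the Sham libraries. TAC libraries were all above Sham libraries, and Sham 1 was not apart from the other Sham libraries here (log2 fold change 4.63, SE 0.42, adjusted p = 8.6e-06). Racgap1, at chromosome 15, 99620496 to 99651656, encodes the partner of Kif23 in centralspindlin. Racgap1 had 56.4, 38.2, 58.05, 18.4 and 66.9 CPM in the TAC libraries, against 3.17, 1.21, 1.28, 2.397 and 1.69 CPM in the Sham libraries. The groups did not overlap (log2 fold change 4.62, SE 0.39, adjusted p = 5.5e-06). Ect2, the exchange factor gene that activates RhoA at the cleavage site, rose by 3.45. The 3 genes summed to 114 ± 47.6 CPM in TAC and 5.18 ± 1.88 CPM in Sham (SD, n = 5 each).

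**Figure D3:**
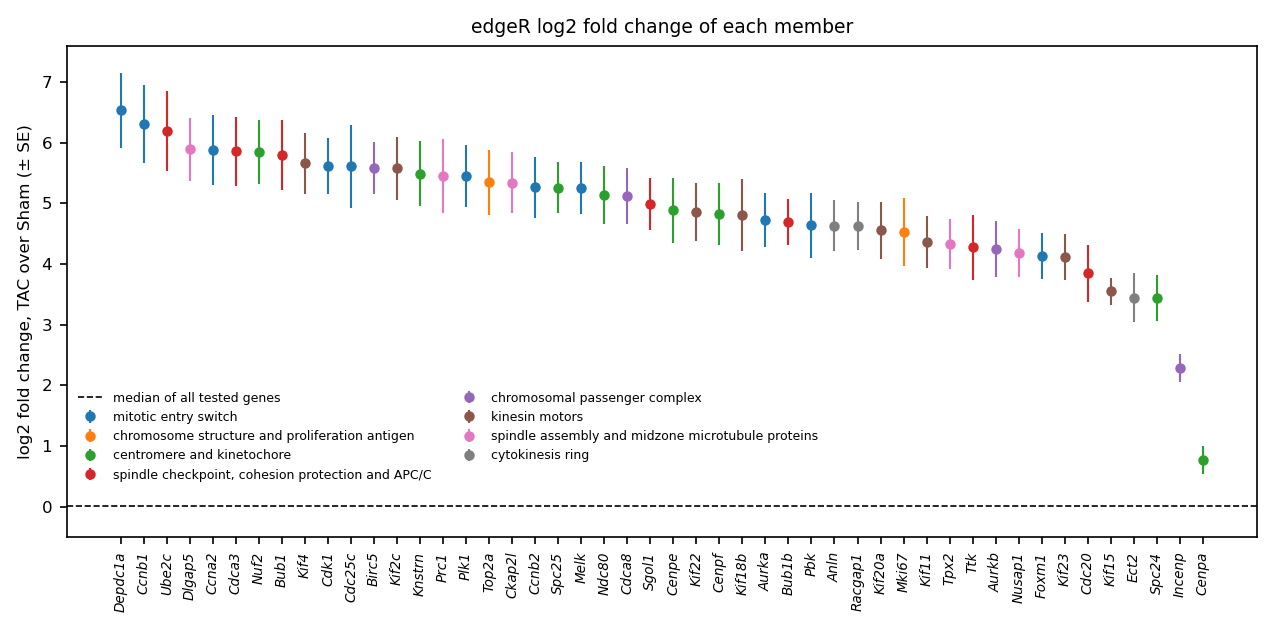
edgeR log2 fold change of TAC over Sham for the 48 genes in falling order, with bars of 1 SE and colours by role, and a dashed line at the median of all tested genes. The values run from 6.53 for Depdc1a through a band of 46 genes at 3 or above to 2.29 for Incenp and 0.77 for Cenpa, and roles are intermixed.

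Per length of exon, levels can be set beside each other between genes. As CPM per kilobase of exon union, the highest mean TAC levels were 20.1 ± 11.5 for Ube2c, 17.9 ± 9.71 for Cdc20, 14.8 ± 6.90 for Ccna2, 13.2 ± 5.61 for Ccnb2 and 11.6 ± 4.86 for Cdk1 (SD, n = 5). The SD is the spread between libraries, which these genes share, and their order within single libraries was not tested. The lowest was Kif15 at 0.276 ± 0.0327, under Cdc25c at 0.997 ± 0.556. In Sham the order was led by Cenpa at 6.09 ± 1.05, followed by Cdc20 at 1.28 ± 0.514 and Incenp at 0.993 ± 0.323, and the median of the 48 was 4.95 in TAC and 0.157 in Sham. With the longest transcript as the length, 8 of the 10 highest TAC genes were shared.

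Of the 48 genes 15 share some exonic bases with another gene, and the counting is not stated to use strand, so reads of such stretches cannot be assigned with certainty. The share was 1.35% to 29.3% of the exonic bases. Exosc9, opposite Ccna2, stood at 14.5 ± 1.604 CPM in TAC and 13.8 ± 1.55 CPM in Sham, and Rccd1, opposite Prc1, at 2.99 ± 0.572 CPM in TAC and 4.26 ± 0.892 CPM in Sham (SD, n = 5 each). Of the neighbours, 3 were themselves called higher. Oip5, opposite Nusap1, covers 4.24% of its exonic bases (log2 fold change 2.75, SE 0.31, adjusted p = 2.1e-05). Pdzd11, opposite Kif4, covers 15.09% (log2 fold change 0.46, SE 0.10, adjusted p = 0.0015), and Elovl1, opposite Cdc20, covers 2.84% (log2 fold change 0.76, SE 0.10, adjusted p = 5.3e-05).

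Within each group the genes moved together from library to library. TAC 4 was the lowest TAC library for 47 of the 48 genes (97.9%), while it was lowest for 20.1% of all tested genes. TAC 5 was the highest for 40 of them (83.3%), against 16.5% of all tested genes, and TAC 3 for the other 8. Kif15 alone had its lowest TAC value elsewhere, in TAC 1. The ratio of TAC 5 to TAC 4 was at least 2 for 45 genes, and its median was 3.84. In Sham, Sham 1 was the highest library for 38 genes (79.2%), against 20.2% of all tested genes, and Sham 2 the lowest for 30. Sham 1 and Sham 2 had nearly the same depth, 17117306 and 17154462 counts.

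**Figure D4:**
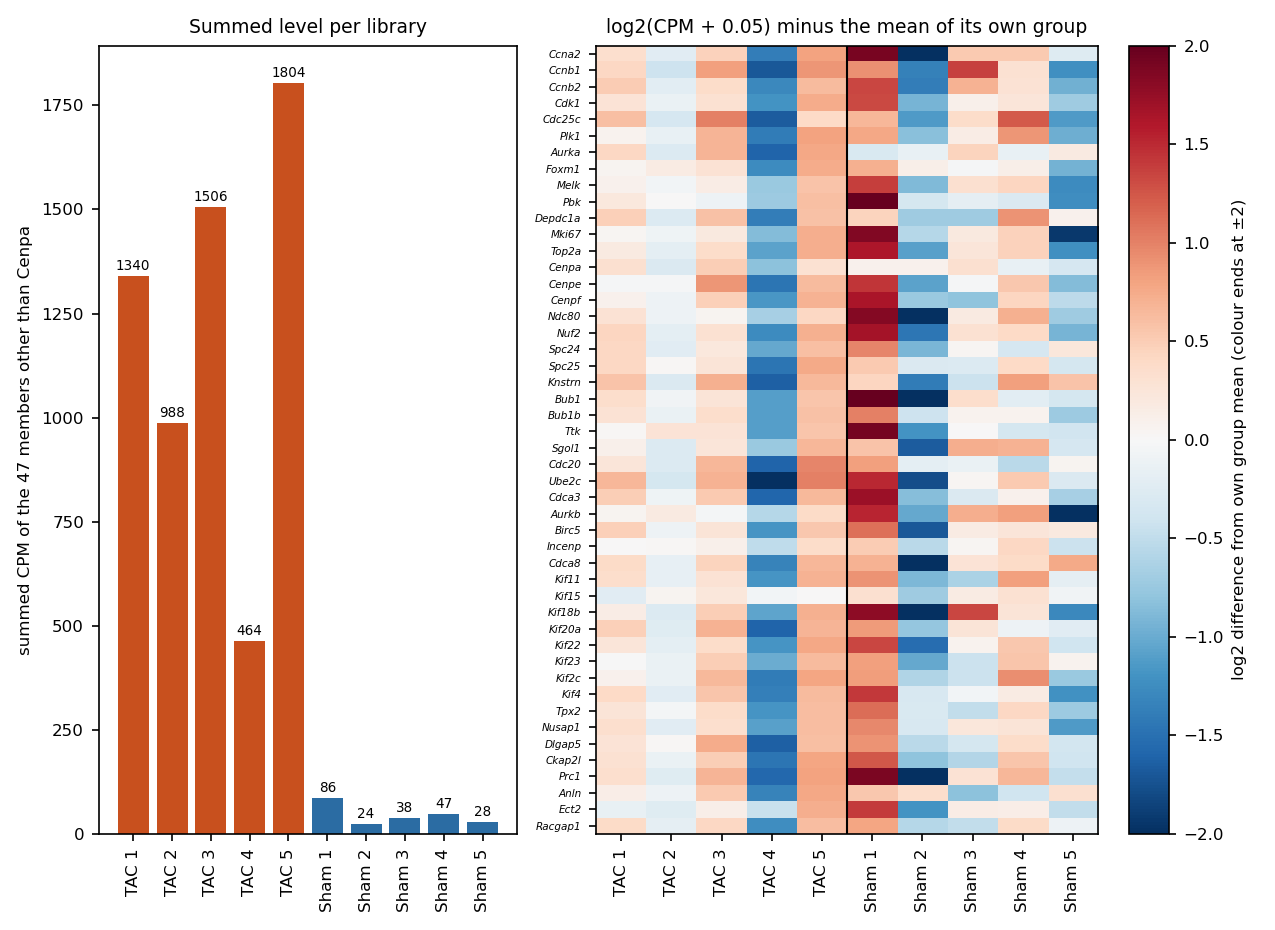
Left, summed CPM of the 47 genes other than Cenpa in each library, TAC in orange and Sham in blue. Right, for each of the 48 genes, the difference of log2(CPM + 0.05) in each library from the mean of its own group (red above, blue below), where the column of TAC 4 is blue in nearly every row, that of TAC 5 red, and that of Sham 1 red in most rows. The TAC bars run from 464 to 1804 CPM and the Sham bars from 23.7 to 85.7 CPM.

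The spread between libraries was wide in both groups. The median coefficient of variation over the 48 genes was 41.9% in TAC and 69.5% in Sham. Only 7 genes had a larger one in TAC than in Sham. Sham values rest on fewer counts, with as few as 6 over the Sham libraries together for 1 gene. The smallest count of any of the 48 genes in a TAC library was 43. Counting error is therefore larger relative to the Sham values, and its share in the Sham figure was not tested. Among genes with more Sham counts, the Sham coefficient of variation was 93.2% for Mki67 (384 counts) and 32.6% for Incenp (573 counts). The lowest TAC library was a median of 5.94 times the highest Sham library, from 0.739 times for Cenpa to 14.8 times at most.

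Markers of other cell types also moved between the groups, and their part in the result was not tested. Over all tested genes, 28.9% were called higher and 27.9% lower, which is the background for the counts of every marker list. Of 10 markers in the atrial heart muscle list 9 were called lower and 1, Nppa, was called higher. Among the lower genes, neither particular to the atrium, Myh6 stood at 11997 ± 2567 CPM in TAC and 33656 ± 2680 CPM in Sham. Actc1 stood at 9706 ± 1105 CPM in TAC and 13914 ± 1247 CPM in Sham. Fibroblast markers were 6 higher and 3 lower of 10, with sums of 6595 to 13086 CPM in TAC and 4879 to 6819 CPM in Sham. Activated fibroblast markers were 6 higher of 8, with sums of 826 to 2222 CPM in TAC and 114 to 238 CPM in Sham. Among them Postn, the periostin gene, stood at 723 ± 389 CPM in TAC and 55.2 ± 23.1 CPM in Sham (SD, n = 5 each). All 10 macrophage and monocyte markers were higher, with sums of 834 to 1406 CPM in TAC and 337 to 596 CPM in Sham. Endothelial markers were 5 higher and 1 lower of 10, with overlapping sums of 1582 to 2503 CPM in TAC and 1496 to 2461 CPM in Sham.

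Smooth muscle and pericyte markers were 7 higher and 1 lower of 10, with sums of 777 to 1050 CPM in TAC and 459 to 552 CPM in Sham. The 5 tested erythroid markers were all higher, but their sums overlapped, with 298 to 574 CPM in TAC libraries other than TAC 3, 2549 CPM in TAC 3 and 136 to 300.2 CPM in Sham. The 3 tested neutrophil markers were higher, with sums of 4.64 to 11.01 CPM in TAC and 0.831 to 3.79 CPM in Sham. Lymphocyte markers were near 0, with sums of 1.27 to 5.39 CPM in TAC and 1.24 to 3.66 CPM in Sham, and among them Cd3e, Cd8a and Ms4a1 did not pass the filter. Ventricular markers were 1 higher and 2 lower of 4 tested. Epicardial markers were 1 higher of 6, Schwann and neuronal markers 1 higher and 3 lower of 6 tested, and adipocyte markers 5 lower of 5 tested.

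Marker sums of single TAC libraries ran both ways beside the mitotic genes. Of the 13 marker lists, 8 summed higher in TAC 4 than in TAC 5 and 5 summed lower. TAC 4, lowest for the mitotic genes, had 10212 CPM of fibroblast markers, 1403 CPM of activated fibroblast markers and 1147 CPM of macrophage markers, while TAC 5, highest for the mitotic genes, had 7700, 839.8 and 909 CPM. These 3 sums were higher in TAC 4 than in TAC 5, and the smooth muscle, endothelial, erythroid, adipocyte and atrial sums were as well. The epicardial markers summed to 143 CPM in TAC 4 and 359 CPM in TAC 5, the ventricular markers to 173 and 492 CPM, the Schwann and neuronal markers to 46.0 and 62.3 CPM and the neutrophil markers to 4.64 and 6.44 CPM, and lymphocyte markers were also lower in TAC 4. TAC 4 had the lowest sum of the TAC libraries for epicardial and neutrophil markers, as for the mitotic genes. Scaled by library size alone, 7 atrial heart muscle markers were lower and 1 higher, 6 fibroblast markers were higher and 2 lower, 7 activated fibroblast markers were higher, and all 10 macrophage markers were higher. Under that scaling 6 endothelial markers were higher and 0 lower, 2 epicardial markers were higher, 1 ventricular marker was higher and 1 lower, and 3 of the 5 adipocyte markers were lower, while the counts of the other lists stayed the same.

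Other genes of spindle, centrosome, kinetochore and cytokinesis were higher as well. Of 44 listed, 43 were in the files and tested, and 42 were called higher and 0 lower, with a median log2 fold change of 3.44. Of all tested genes 28.9% were called higher and 27.9% lower. Pmf1, a kinetochore gene, was not called (log2 fold change 0.33, SE 0.17, adjusted p = 0.11). Kif14, a midzone kinesin gene, had 5.16, 5.56, 7.31, 3.05 and 7.02 CPM in the TAC libraries, against 0.186, 0.128, 0.274, 0.103 and 0.188 CPM in the Sham libraries (log2 fold change 4.96, SE 0.33, adjusted p = 1.1e-06). Plk4, the kinase gene that starts centriole duplication, had 17.1 ± 4.08 CPM in TAC and 2.74 ± 0.265 CPM in Sham (log2 fold change 2.65, SE 0.18, adjusted p = 1.1e-06). TAC 4 was the lowest TAC library for 40 of the 43 genes and TAC 5 the highest for 24. With library size as the only scaling all 43 were called higher.

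Lists that hold many subunits used outside mitosis had smaller medians. Their counts stand beside 28.9% of all tested genes called higher and 27.9% called lower. In the list of other checkpoint and APC/C genes, 13 of 24 were higher and 1 was lower, with a median of 0.24. Zwilch, a kinetochore gene of the checkpoint, rose by 3.56, SE 0.29 and Trip13, an ATPase gene that disassembles the checkpoint complex, rose by 3.85, SE 0.34 on the log2 scale. Anapc13, a small APC/C subunit gene, was lower at -0.33 (adjusted p = 0.018), a call that was lost without TAC 4 or TAC 5 and a sign that turned to 0.031 with library size as the only scaling. In the list of condensin, cohesin and separase genes, 10 of 20 were higher and 2 lower, with a median of 0.19. Pttg1, the securin gene, named here after its values were seen, was among the 8 not called (log2 fold change -0.59, SE 0.24, adjusted p = 0.051). The condensin genes Smc2 and Ncaph rose by 2.45, SE 0.16 and 3.52, SE 0.25. Stag1, a cohesin subunit gene, was lower at -0.36 (adjusted p = 0.0017), but stood at 0.0020 with library size as the only scaling.

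Upstream of mitosis, most G1 and S phase regulators were higher, with a smaller median. Of 19 genes of G1 and S cyclins, their kinases and E2F factors, 15 were higher and 1 lower, with a median of 0.62. The shares over all tested genes were 28.9% higher and 27.9% lower. E2f1, a transcription factor gene that drives S phase entry, had 39.8, 26.4, 25.8, 16.1 and 41.4 CPM in the TAC libraries, against 2.24, 0.831, 0.7902, 0.876 and 0.525 CPM in the Sham libraries (log2 fold change 4.92, SE 0.38, adjusted p = 3.4e-06). Ccne1, the cyclin E1 gene, averaged 13.7 ± 3.27 CPM in TAC and 1.99 ± 0.514 CPM in Sham (log2 fold change 2.79, SE 0.22, adjusted p = 2.8e-06). E2f6, which encodes a repressor of the family, was lower (log2 fold change -0.55, SE 0.11, adjusted p = 0.0015), and scaled by library size alone it was no longer called (-0.19).

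In the list of MuvB, DREAM and RB family genes, 6 of 10 were higher and 2 lower, with a median of 0.70. Among all tested genes 28.9% were called higher and 27.9% lower. Mybl2, which encodes the B-MYB partner of MuvB in cycling cells, had 1.71, 2.12, 1.51, 2.17 and 2.295 CPM in the TAC libraries, against 0.124, 0.0639, 0.122, 0.129 and 0.1501 CPM in the Sham libraries (log2 fold change 3.97, SE 0.26, adjusted p = 1.1e-06). TAC was above Sham in all libraries, at low levels. Rbl1, the p107 gene, rose by 1.84, SE 0.14, while Rbl2, the gene of p130, the pocket protein of DREAM in resting cells, fell and averaged 32.3 ± 2.39 CPM in TAC and 47.98 ± 4.64 CPM in Sham (log2 fold change -0.57, SE 0.08, adjusted p = 1.2e-04), a change that was -0.21 (adjusted p = 0.041) with library size as the only scaling.

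Brakes on the cycle moved both ways, as did all tested genes, of which 28.9% were called higher and 27.9% lower. Among 17 tested CDK inhibitors and G2 brakes, 8 were higher and 2 lower, with a median of 0.42, and Cdkn2a did not pass the filter. Btg2, an antiproliferative gene, had 73.4, 76.3, 56.5, 46.3 and 58.6 CPM in the TAC libraries, against 209, 324, 224, 214 and 285 CPM in the Sham libraries, and every TAC library was below every Sham library (log2 fold change -2.01, SE 0.17, adjusted p = 3.6e-06). Pkmyt1, the gene of a kinase that inhibits CDK1, rose by 1.56, SE 0.22. Of 13 phosphatases and regulators of G2/M that resting cells also carry, 2 were higher and 5 lower, with a median of -0.063. Mastl, the Greatwall kinase gene that holds PP2A in check during mitosis, had 13.2, 8.57, 13.9, 5.05 and 15.6 CPM in the TAC libraries, against 1.12, 0.703, 0.456, 0.799 and 0.675 CPM in the Sham libraries (log2 fold change 3.94, SE 0.34, adjusted p = 5.0e-06). Ppp2r1a, the scaffold gene of PP2A, fell and averaged 184 ± 13.3 CPM in TAC and 291 ± 12.2 CPM in Sham (log2 fold change -0.66, SE 0.07, adjusted p = 2.0e-05). Scaled by library size alone, the change of Ppp2r1a was -0.30 (adjusted p = 0.0037) and this list had 8 higher and 1 lower and a median of 0.30.

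**Figure D5:**
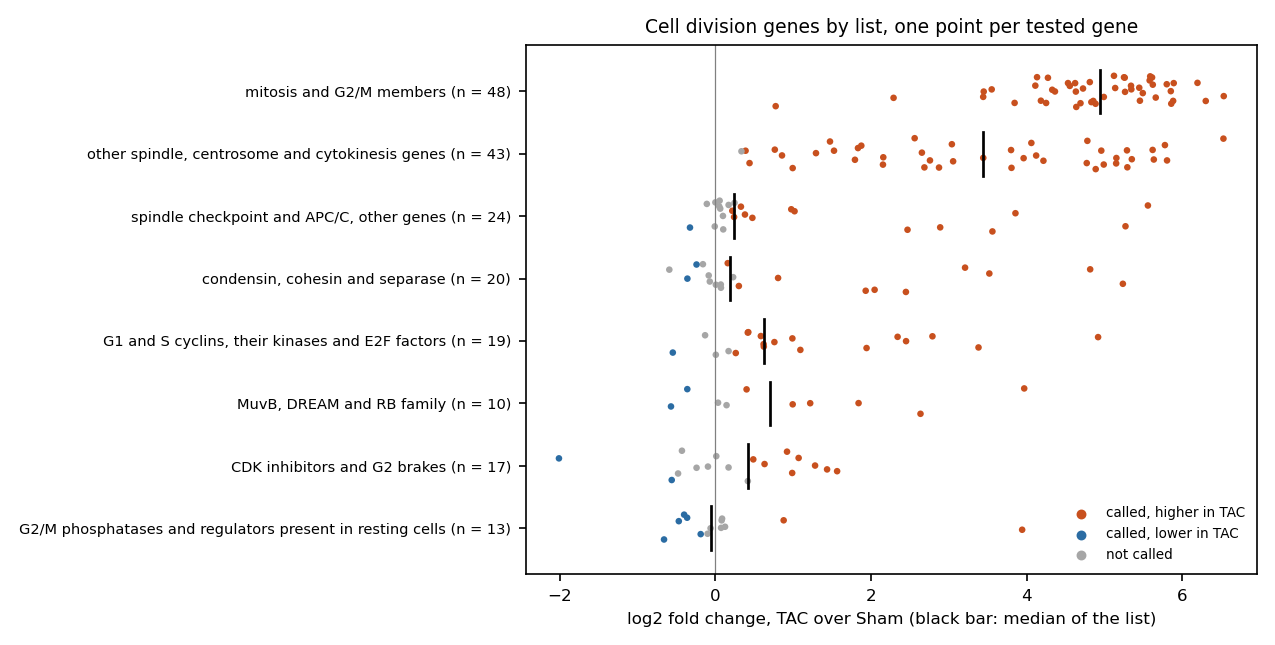
edgeR log2 fold change of TAC over Sham for each tested gene of the 48 and of 7 other lists of cell division genes, called higher in orange, called lower in blue and not called in grey, with a black bar at each list's median. The medians are 4.94 for the 48 genes, 3.44 for the other spindle, centrosome and cytokinesis genes, and between -0.063 and 0.70 for the remaining 6 lists.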

How the data were processed

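Bulk RNA was measured in 10 libraries, grouped as TAC or Sham by their titles. The authors deposited raw read counts per gene symbol, 1 table per library with 5 tallies of unassigned reads (25.9% to 29.1% of reads), which were left out; bcl2fastq, STAR and build mm10 are named in the submitters' processing notes, and no source used here gives the counter or its strand setting. Counts were fitted over all genes with edgeR 4.0.16 in R 4.3.3 (TMM factors, filterByExpr, robust quasi-likelihood F test, TAC over Sham), with Benjamini-Hochberg adjustment over the 15175 genes tested and a threshold of 0.05; fold changes use a prior count of 0.125, and the SE is the fold change over the square root of F. The procedure was run on simulated counts in which genes varied independently and few were changed. That run did not examine the scaling or variation shared between genes. CPM are TMM-normalised, and annotation is GENCODE M21, with which 46297 of 48397 symbols (95.7%) matched a single gene. DESeq2 1.42.0 and limma 3.58.1 were alternatives. Intervals that a count of 0 allows (3 counts) cover counting error only.

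The members and all lists were chosen with earlier results of these data known. Values per library are given for the member of each role with the highest mean CPM, for the one with the largest log2 fold change among the rest, and for the largest and smallest log2 fold changes of all. From each list the 2 called genes with the smallest adjusted p and 1 of the rarer direction are named. Alternatives for the other lists were added after seeing the data. TAC and Sham libraries of the same number did not deviate together, so the fit has no block.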

Additional observations from a re-analysis of the deposited data

Results flagged for a closer look

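In 4 of the 98 sets of 5 libraries examined (each gene in each group, and the summed levels), 1 library lay far from the other 4, and each time it was Sham 1, at the high end. For normally distributed values, a gap of that size arises by chance in about 1 in 20 such sets. These Sham values rest on few counts and the genes moved together, so that rate need not hold here. Pbk, a kinase gene of dividing cells, stood at 1.92 CPM in Sham 1, and the next Sham library at 0.365 CPM. Bub1, a checkpoint kinase gene, stood at 0.931 CPM in Sham 1 and 0.213 CPM in the next. Ttk, the kinase gene that starts the checkpoint signal, had the same levels, 0.931 and 0.213 CPM. Cdca3 stood at 1.37 CPM in Sham 1 and 0.412 CPM in the next. All 4 genes remained below every TAC library in Sham 1.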

How the results depend on the processing

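The count of 48 members called higher was 48 in each refitted setting, and 47 at an adjusted p under 0.01 or with an absolute log2 fold change of at least 1, where Cenpa dropped out. Their median log2 fold change lay between 4.75 and 5.31 over 23 alternatives, and leaving out 1 library gave the same limits with 48 called each time. All 1104 single-gene values under an alternative kept their direction and their side of the threshold. Library size as the only scaling moved the median of all genes to 0.37, gave 7741 genes higher and 1929 lower against 4383 and 4233 with TMM, and put the members at 5.30. Under that scaling the other checkpoint and APC/C genes had 23 higher and 0 lower, condensin and cohesin genes 16 and 0, resting-cell phosphatases and regulators 8 and 1, G1 and S genes 0 lower, MuvB and RB family genes 1 lower and CDK inhibitors 1 lower. There Anapc13 was at 0.031 and Stag1 at 0.0020. Thinned to the shallowest library, 4 CDK inhibitors were lower. Without 1 library, lower calls ranged from 2 to 4 for CDK inhibitors, 1 to 2 for the MuvB and RB family, 1 to 3 for condensin and cohesin genes and 0 to 1 for checkpoint and APC/C genes; the cause was not tested. Same-numbered TAC and Sham libraries had correlations of deviations of -0.036 to 0.080, and 0 of 5 TAC libraries were most like the Sham library of their own number. With the replicate block 48 members were called with a median of 4.89, and 1 MuvB and RB family gene was lower. For the 6 members with a Sham library at 0 counts, the Sham values are poorly fixed. Sham 2 held 0 counts for 6 members and Sham 1, of nearly the same depth, for 0. The part of depth in this was not tested.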
